A study of Arabidopsis thaliana with 12 samples.

Results

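The response of wild-type roots to low phosphate (Pi) was described for all 20017 measured genes of Arabidopsis thaliana by setting roots grown without added Pi (Col-0 -Pi) against roots grown with Pi (Col-0 +Pi). These are 6 of the 12 RNA sequencing libraries of the series, 3 in each group, chosen by their labels and not by any measured value. Col-0 is the wild-type accession. All seedlings grew for 7 days on agar plates of a dilute mineral medium that held 1 mM phosphate (+Pi) or had none added (-Pi). The -Pi medium still carried some residual phosphate. The roots of many seedlings were pooled for each library. The other 6 libraries came from the *crr* mutant on the same media, which lacks CRR, a protein with a cytochrome b561 and a DOMON domain, and they serve here as a second pair of groups. For each gene and group the deposited table gives a mean over the libraries, on the log2 CPM scale of counts per library total after scaling between libraries. The paper reports read numbers for the libraries, which were not used here. Values of single libraries were not used either, so the differences below have no error, test or p-value. A difference is the -Pi mean minus the +Pi mean, in log2 units. In bulk roots, fewer cells of a type and less RNA per cell cannot be told apart.

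Plants take up phosphorus as Pi. When Pi runs short, roots make more Pi transporters, phosphatases and lipid-remodelling enzymes. Much of this programme is driven by the transcription factor PHR1, which binds a short palindrome named P1BS and is held back by SPX proteins when Pi is plentiful. Low Pi is also known to promote root hairs and to act on the uptake of other nutrients. The account begins with the Pi genes and their promoters and goes on to other nutrients, hormones, cell walls and secondary metabolism.

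Some promoter windows are printed to show the P1BS palindrome in a gene of the classic response beside genes of sulfur and calcium. Each window runs from 250 bases before to 50 bases after the annotated gene start (RefSeq, TAIR10.1) and is written 5′ to 3′ on the strand of the gene, with every match to GNATATNC in capitals. SPX3 is a Pi sensor gene, and SQD1 makes the sugar donor of the sulfolipid that replaces phospholipid. LSU4 belongs to a family of small proteins known from sulfur shortage, SULTR2;1 is a sulfate transporter of the vascular tissue, and CBL1 is a calcium sensor that acts with protein kinases on ion channels.
SPX3: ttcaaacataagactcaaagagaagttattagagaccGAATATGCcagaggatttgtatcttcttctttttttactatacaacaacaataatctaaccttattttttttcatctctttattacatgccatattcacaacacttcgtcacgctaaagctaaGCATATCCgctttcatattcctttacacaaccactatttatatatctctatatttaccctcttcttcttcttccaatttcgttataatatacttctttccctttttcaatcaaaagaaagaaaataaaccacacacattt
SQD1: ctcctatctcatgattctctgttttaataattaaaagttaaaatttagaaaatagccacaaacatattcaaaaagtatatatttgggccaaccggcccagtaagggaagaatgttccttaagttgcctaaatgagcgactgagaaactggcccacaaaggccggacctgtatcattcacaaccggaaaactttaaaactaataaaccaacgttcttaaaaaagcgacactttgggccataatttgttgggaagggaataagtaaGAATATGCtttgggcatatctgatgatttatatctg
LSU4: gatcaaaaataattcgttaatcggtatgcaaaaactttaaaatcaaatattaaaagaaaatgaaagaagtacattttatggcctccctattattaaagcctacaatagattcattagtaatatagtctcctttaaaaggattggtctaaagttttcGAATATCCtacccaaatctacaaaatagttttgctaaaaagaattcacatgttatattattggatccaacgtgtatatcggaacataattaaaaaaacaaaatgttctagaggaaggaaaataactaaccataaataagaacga
SULTR2;1: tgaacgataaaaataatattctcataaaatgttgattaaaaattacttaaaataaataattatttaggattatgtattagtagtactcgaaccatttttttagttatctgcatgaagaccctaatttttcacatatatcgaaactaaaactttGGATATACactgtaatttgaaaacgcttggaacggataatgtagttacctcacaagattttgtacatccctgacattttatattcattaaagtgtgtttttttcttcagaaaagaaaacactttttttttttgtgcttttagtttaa
CBL1: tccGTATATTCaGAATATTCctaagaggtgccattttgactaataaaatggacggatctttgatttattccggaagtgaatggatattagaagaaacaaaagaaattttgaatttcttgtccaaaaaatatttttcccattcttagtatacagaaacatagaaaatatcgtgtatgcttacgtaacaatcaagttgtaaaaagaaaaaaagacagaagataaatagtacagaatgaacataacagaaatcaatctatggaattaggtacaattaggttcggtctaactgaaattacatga

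The windows of SPX3 and CBL1 each held 2 matches, and those of SQD1, LSU4 and SULTR2;1 held 1 each. In SPX3 (chr2:18606160-18606459) the matches began at -213 and -90 from the gene start. In CBL1 (chr4:9816028-9816327) they began at -247 and -238, in LSU4 (chr5:8441315-8441614, reverse strand) at -94 and in SULTR2;1 (chr5:3192767-3193066) at -97. The match of SQD1 (chr4:15935123-15935422) lay inside the gene and began at its base 15. A match describes letters in the window and is not a measured binding site.

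A gene is called higher or lower when its Col-0 means differed by at least 1 log2 unit, which is 2-fold, and at least 1 of the means reached 1 log2 CPM. By this rule 584 genes (2.92% of all measured) were higher under -Pi and 384 (1.92%) were lower. Counts given for gene lists below are to be read beside these shares. The higher genes reached further. Of them 191 differed by at least 4-fold and 49 by at least 16-fold, against 63 and 4 of the lower genes. Among the higher genes 114 had a +Pi mean under 0 log2 CPM and 72 already stood at 5 log2 CPM or more in +Pi. The median difference over all genes was 0.02. At the edge of the rule, the alcohol dehydrogenase gene ADH1 lay just inside at 1.0015 and AT3G49360 just outside at 0.9973. On the other side the photosystem gene PSBY lay just inside at -1.0003 and the fasciclin-like gene FLA8 just outside at -0.9969.

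How far group means can differ without a difference in Pi was read from the genotypes on the same medium. In each band of expression level, 95% of the genes differed between *crr* and Col-0 under -Pi by less than 1.46 log2 units where the mean of the pair was under 1 log2 CPM, by less than 0.58 at a level of 2 to 3, by less than 0.39 at 3 to 5 and by less than 0.26 from 5 upward. Under +Pi these limits were narrower, at 1.19, 0.41, 0.26 and 0.17 for the same bands up to level 7. The -Pi limits are used below as the same-medium limit. They hold the effects of the mutation as well as the spread between libraries, and they share the Col-0 libraries, so they describe scale and test nothing. By the same-medium limit alone, 2026 genes (10.1%) lay higher under -Pi in Col-0 and 1846 (9.22%) lay lower. The limit was first planned on the +Pi pair alone and was widened after the values were seen. With the +Pi pair alone 3275 genes lay higher and 2963 lower, so every count beyond the limit given below depends on this choice. Of the genes called by the 2-fold rule, 547 of the 584 higher and 353 of the 384 lower also passed this limit.

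**Figure D1:**
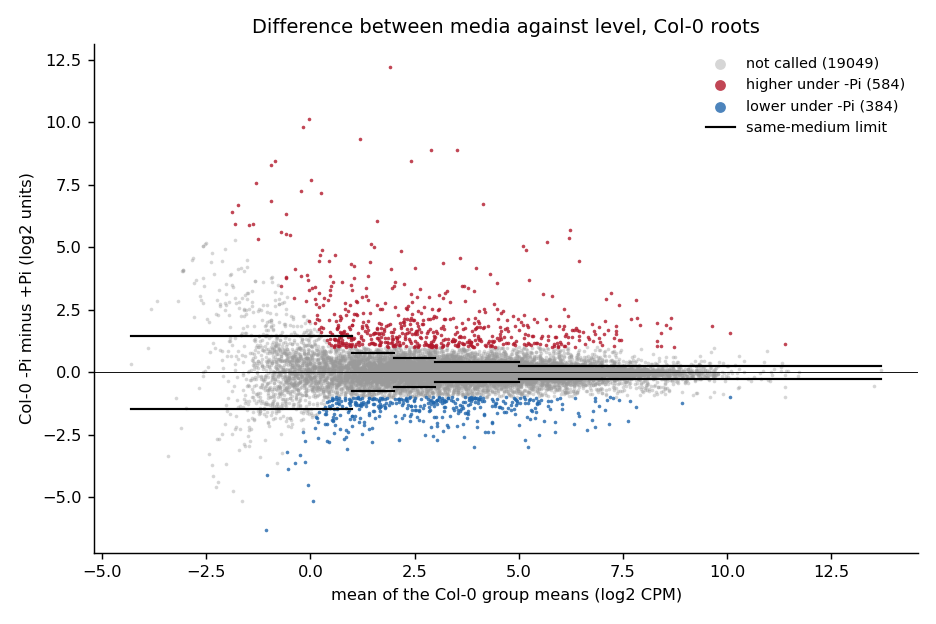
Each point is a gene, with the mean of its Col-0 group means (log2 CPM) on the horizontal axis and the Col-0 difference (-Pi minus +Pi, log2 units) on the vertical axis. Red and blue mark the 584 higher and 384 lower genes, and the black steps mark the same-medium limit, which narrows from 1.46 at low level to 0.26 at high level.

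The *crr* libraries give the same contrast with no library in common. In *crr* 706 genes (3.53%) were higher and 502 (2.51%) lower by the same rule. Of the 584 genes higher in Col-0, 491 (84.1%) were called higher in *crr* and 579 had the same sign. Among the 384 lower genes 242 (63%) were called lower in *crr*, 372 had the same sign, and 2 were called the other way.

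The Pi genes themselves stood far above the rest. Of 25 measured genes of the core Pi list 21 were higher and 0 lower, with a median of 3.07 beside 0.02 for all genes. The largest difference of the table belonged to PECP1 (AT1G17710, TAIR10 chromosome 1, 6090405 to 6092027), which encodes a phosphatase of phosphoethanolamine and phosphocholine, at -4.18 log2 CPM in +Pi and 8.02 in -Pi. The decoy RNA IPS1 stood at -0.92 and 7.98 and SPX3 at -1.81 and 6.66. A number of core genes were already well expressed in +Pi. G3Pp1, a permease for glycerol 3-phosphate, was at 5.63 and 8.78, and the sulfolipid synthase SQD2 was at 5.62 and 8.56. The exporter gene PHO1 and the ubiquitin conjugase gene PHO2, which limits Pi uptake, were not called, with differences of -0.13 and -0.57. Of 8 measured PHT1 transporter genes 7 were higher. Their reads cannot be fully separated, since 41.9% of the 50-base windows of PHT1;1 also occur in PHT1;2.

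The P1BS palindrome was more frequent in the promoter windows of genes with larger positive differences. It occurred in 6.31% of 19996 windows of measured genes, in 16.3% of the 584 higher genes and in 6.79% of 383 lower genes. Among higher genes the share was 13% for those between 2- and 4-fold, 16.9% between 4- and 16-fold and 40.8% from 16-fold upward. The G-box CACGTG, a palindrome of other factors searched on both strands in the same way and able to share only end bases with a P1BS match, occurred in 8.58% of all windows, 5.99% of the higher genes and 8.62% of the lower ones. Members of the core Pi list held P1BS in 13 of 25 windows. Counts in called genes of other groups are too small to set apart from the 6.31% of all windows, and the groups share some genes. P1BS was in 0 of 8 higher root hair genes, 1 of 19 higher extensins and other proline-rich proteins and 0 of 6 higher xyloglucan enzymes. It was in 1 of 14 higher peroxidases, 0 of 5 higher aliphatic glucosinolate genes and 2 of 8 higher sulfur genes. No match says only that these letters are not in this window.

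**Figure D2:**
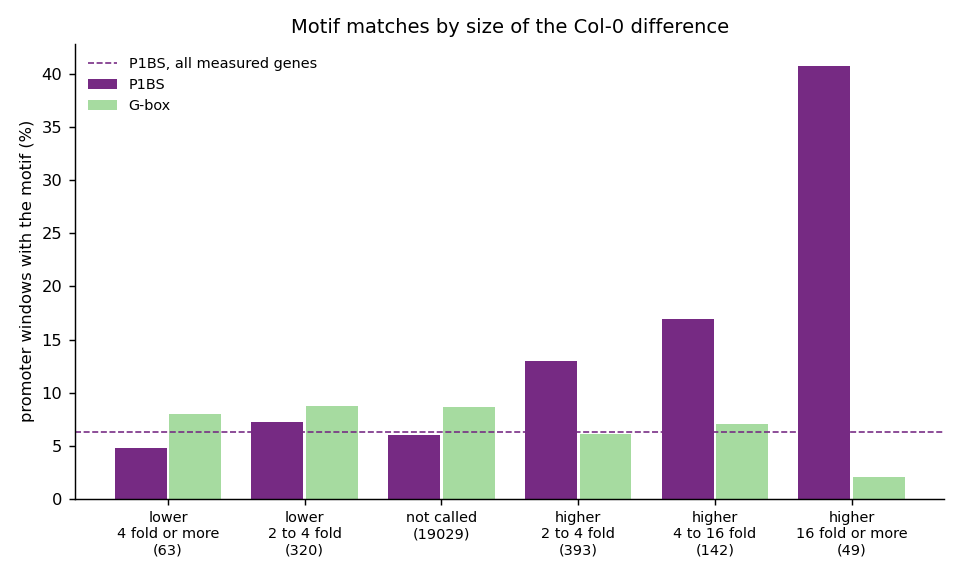
Bars give the percent of promoter windows with at least 1 match to P1BS (purple) or the G-box (green) for genes grouped by their Col-0 difference, with the number of windows in parentheses. P1BS goes from 4.76% in genes at least 4-fold lower to 40.8% in genes at least 16-fold higher, and the dashed line marks 6.31% for all measured genes.

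**Figure D3:**
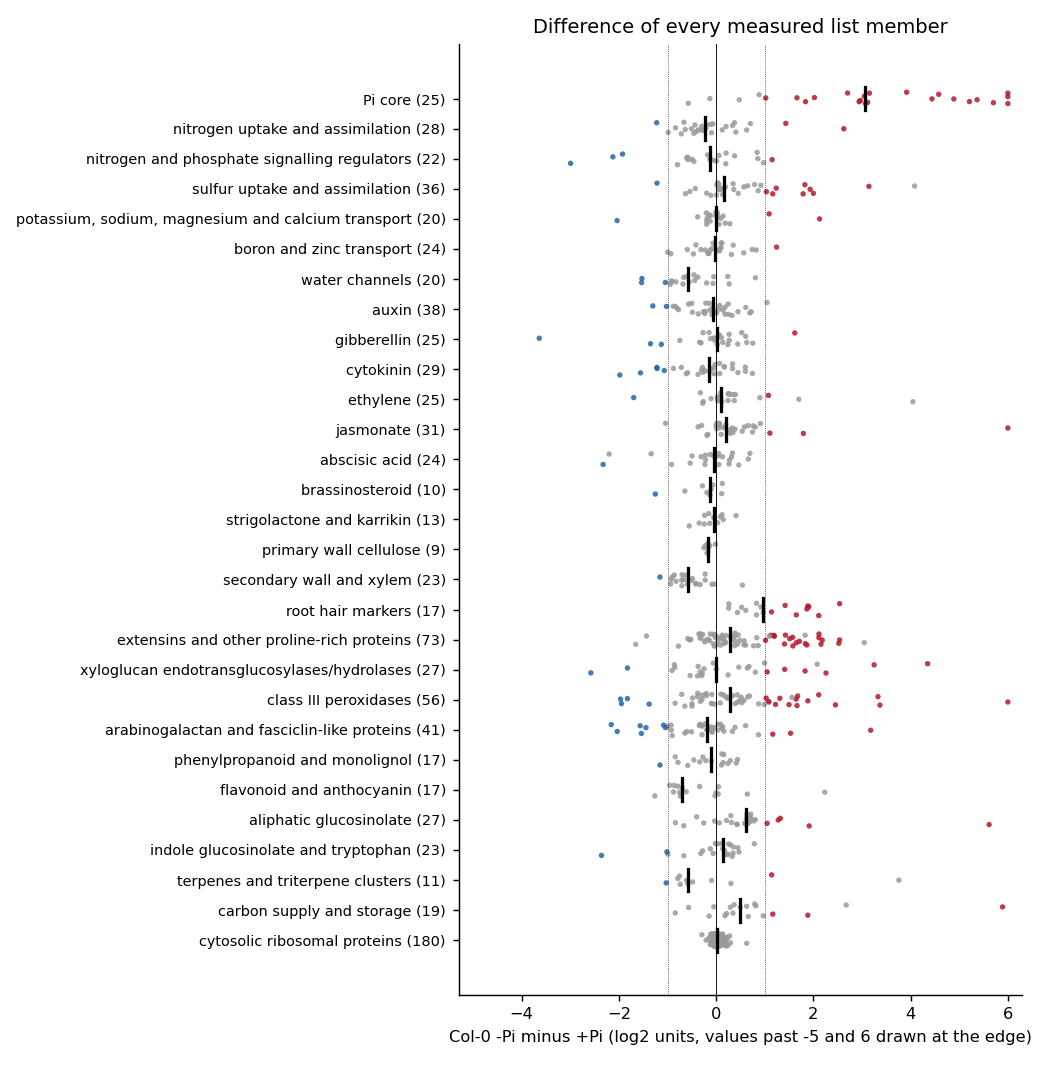
Each point is a measured gene of the list named at the left (number of genes in parentheses), placed by its Col-0 difference (-Pi minus +Pi, log2 units), with called genes in red (higher) and blue (lower) and the list median as a black bar. The core Pi list has its median at 3.07 and the cytosolic ribosomal proteins lie around 0.02.

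Genes of nitrogen uptake and assimilation mostly stood slightly lower under -Pi. Of 28 measured members 2 were higher and 1 lower by the 2-fold rule, and 7 and 12 passed the same-medium limit in each direction, with a median of -0.23. NPF6.3 (NRT1.1), the nitrate transporter and sensor of the root (chromosome 1, 4105223 to 4109601), was lower at 9.53 log2 CPM in +Pi and 8.31 in -Pi, a difference of -1.22 in Col-0 and -1.20 in *crr*. GLN1;2, a cytosolic glutamine synthetase, missed the 2-fold limit at -0.99, and CLC-A, which loads nitrate into the vacuole, was at -0.84. The ammonium transporters AMT1;1 and AMT1;3 were at -0.64 and -0.72 and NRT3.1, the partner protein of the high-affinity nitrate transporters, was at -0.66. All 5 of these lay beyond the same-medium limit. The high-affinity transporter gene NRT2.1 stood at -0.42, and NRT2.4, known from nitrogen starvation, was at -1.80 and -2.16 log2 CPM.

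Members with similar roles also lay beyond the same-medium limit upward without being called. AMT2;1 was at 0.70, NPF3.1 at 0.63, GLN1;3 at 0.40, NIA2 at 0.38 and GDH2 at 0.34. The members called higher were NPF7.2 and ASN1. NPF7.2 (NRT1.8), which takes nitrate out of the xylem sap (chromosome 4, 11517353 to 11519805), was at 1.03 log2 CPM in +Pi and 3.66 in -Pi, 6.17-fold higher, and 2.99 log2 units higher in *crr*. ASN1, an asparagine synthetase known from sugar starvation and darkness, was at 5.72 and 7.15. Its *crr* difference was 1.39, close to the 1.43 of Col-0.

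Some regulators had larger differences than most genes of nitrogen uptake and assimilation. BT1 and BT2, which encode BTB and TAZ domain proteins known to act on nitrate uptake, were both lower. BT1 stood at 5.43 log2 CPM in +Pi and 2.44 in -Pi, and BT2 at 6.08 and 3.95. In *crr* the differences were -2.81 for BT1 and -2.41 for BT2. Their relative BT5, which was not in the list and was looked up after these values were seen, was at -1.79 in Col-0 and -0.94 in *crr*. GRXS11 (AT1G06830), a glutaredoxin, was lower as well at -1.93. Of 22 regulators of nitrogen and Pi signalling 1 was higher and these 3 were lower (median -0.12). Members of the NIGT1 family of repressors, which respond to nitrate and to Pi, went different ways without being called. HHO2 and HHO3 were at 0.97 and 0.86 and HRS1 at -0.80, each beyond the same-medium limit. ETC1, a small MYB protein of hair patterning, was the higher gene at 1.15. PHR1 itself was at 5.56 and 5.53 log2 CPM.

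Sulfur genes stood on the positive side. Of 36 measured genes on the list of sulfate uptake and assimilation 8 were higher and 1 lower, 30 had a positive difference, and the median was 0.16. SULTR1;3, a sulfate transporter of the phloem (chromosome 1, 7817609 to 7821576), had the largest called difference, from 0.85 log2 CPM in +Pi to 3.99 in -Pi, 8.83-fold, with 4.01 log2 units in *crr*. SULTR1;1, a high-affinity transporter of the root surface, was at 1.74 and 3.67, and SULTR2;1 was at 4.84 and 6.00. SULTR3;4, also known as a distributor of Pi, was at 3.79 and 5.02. SULTR3;2, a sulfate transporter outside the list that was looked up after these values were seen, was higher by 1.09. SULTR1;2, the main uptake transporter of roots, stood the other way without being called, at 8.35 and 7.72. SULTR3;5, which aids transport from root to shoot, was the lower gene at 6.09 and 4.87, with -1.22 in Col-0 and -1.82 in *crr*.

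Markers of sulfur shortage were divided. LSU1, LSU2 and LSU4 were higher by 2.00, 1.82 and 1.79, and by 1.68, 2.11 and 1.68 in *crr*. LSU3 was not called (0.92, with both means under 0 log2 CPM), and SDI1, which represses glucosinolate synthesis, was at 0.36. BGLU28, another such marker, was listed at the lowest value of the table in +Pi and at -1.01 in -Pi, under the level required. Of the reducing steps, APR1 was at 0.79, APR2 at 0.19 and APR3 at 0.04, while the sulfite reductase SIR was at 0.12. SERAT2;2, a serine acetyltransferase of cysteine synthesis, was higher at 6.78 and 7.81 log2 CPM. The regulator SLIM1 was at 4.45 and 4.47.

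On the lists of potassium, calcium, boron and zinc genes 4 members were called. CAX3, a vacuolar calcium exchanger, was higher at 4.60 log2 CPM in +Pi and 6.73 in -Pi, with 2.13 log2 units in Col-0 and 2.05 in *crr*. CBL1 was higher by 1.09 and its close relative CBL9 was at -0.38. SKOR, the channel that releases potassium into the xylem, was lower at 4.05 and 2.01, and by 2.63 log2 units in *crr*. In the list of 20 potassium, sodium, magnesium and calcium genes these were the 2 higher and 1 lower members (median -0.01). HAK5, the marker of potassium starvation, was at 1.41 and 1.21. Further cation genes outside the list were higher and were looked up after these values were seen, among them the exchangers CAX7 and CHX17 at 2.34 and 1.49, the cyclic nucleotide-gated channel CNGC19 at 1.56, and the calcium ATPases AT3G22910 and AT3G63380 at 2.70 and 1.96. For zinc and boron, 1 of 24 genes was higher and 0 lower (median -0.02). The higher gene was HMA2, a pump that loads zinc into the xylem, at 3.74 and 4.99. The zinc deficiency markers ZIP4 and ZIP9 were at 0.12 and 0.57, both within the same-medium limit. Other members lay beyond it without being called, in both directions. ZIP5 and ZIP1 were at 0.82 and 0.74, and MTP3 and HMA3 at -0.995 and -0.93. The boron transporter genes BOR1 and NIP5;1 were at 0.35 and 0.08.

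Water channels stood lower as a group. Of 20 measured genes on the water channel list, from the PIP, TIP and NIP subfamilies, 17 had a negative difference. In the list 13 passed the same-medium limit downward, and the median was -0.58. NIP5;1 and NIP6;1, which were kept on the list of boron and zinc genes, were at 0.08 and -0.09. By the 2-fold rule 3 were lower and 0 higher. PIP2;4, a plasma membrane channel of the root, stood at 6.06 and 4.52, and TIP2;2, a vacuolar channel, at 7.84 and 6.31. PIP1;5 was the third at -1.05. SIP1;2, of a subfamily outside the list, was also lower at 2.02 and 0.93 and was looked up after these values were seen. The abundant root channels PIP2;1 and PIP2;2 were at -0.92 and -0.91, though 19.6% of the 50-base windows of PIP2;2 also occur in PIP2;3. PIP2;5 went the other way at 0.81. The differences were smaller in *crr*, at -0.80 for PIP2;4 and -1.17 for TIP2;2, and whether the genotypes differ was not tested.

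**Figure D4:**
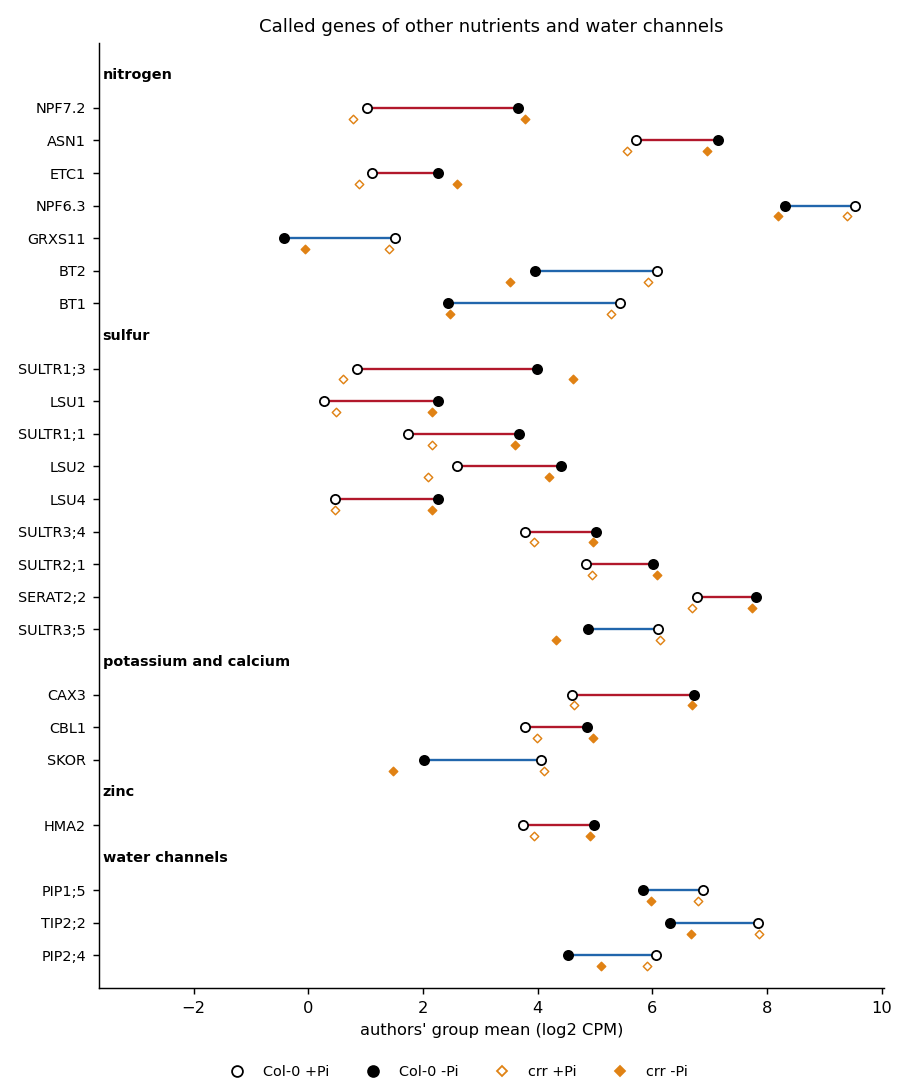
Circles give the authors' Col-0 means (log2 CPM) in +Pi (open) and -Pi (filled) of the called genes of nitrogen, sulfur, potassium and calcium, zinc and water channels, joined in red where -Pi is higher and in blue where it is lower. Orange diamonds just under them give the *crr* means and lie in the same order in every gene drawn, for example BT1 at 5.43 and 2.44 in Col-0 with a *crr* difference of -2.81.

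Among the hormone lists, cytokinin had the most called genes. Of 29 measured cytokinin genes 5 were lower and 0 higher, with a median of -0.14. CYP735A1 and CYP735A2, which hydroxylate the side chain to make trans-zeatin, were at 2.66 and 5.34 log2 CPM in +Pi and 1.44 and 3.35 in -Pi. IPT5 and IPT7, which carry out the first step of cytokinin synthesis, were lower by 1.07 and 1.22 log2 units, and IPT3 stood at -0.88. CKX4, an oxidase that breaks cytokinin down, was at 4.55 and 3.00. The *crr* differences of CYP735A2 and CKX4 were -2.60 and -2.05. The type-A response regulators, which report cytokinin signalling, were not called and had both directions. ARR5 and ARR6 were at 0.07 each, ARR3 at 0.45, ARR15 at 0.60 and ARR16 at 0.75. ARR4 was at -0.28, ARR8 at -0.27, ARR9 at -0.37 and ARR7 at -0.72. ARR3 lay beyond the same-medium limit upward, and ARR4, ARR8 and ARR9 lay beyond it downward. Of genes outside the list, looked up after these values were seen, the activating enzymes LOG2 and LOG1 went opposite ways, LOG2 higher at -0.42 and 2.09 log2 CPM and LOG1 lower at 1.56 and 0.14, the latter within the same-medium limit. The cytokinin response factor CRF8 was higher at 2.17 and 4.28.

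Gibberellin genes had called members in both directions. GA2OX1, which inactivates gibberellin, was among the largest negative differences of the table, at 1.46 log2 CPM in +Pi and -2.18 in -Pi. Its relatives GA2OX2, GA2OX4, GA2OX6 and GA2OX8 were at -0.04, 0.52, -0.27 and -0.31, all within the same-medium limit. GA3OX2, the last step of synthesis, was lower at 3.77 and 2.64, with GA3OX1 at -0.75. GA20OX1, the step before it, was higher at -0.33 and 1.29, with GA20OX2 and GA20OX3 at 0.75 and 0.61, the latter within the same-medium limit. The responsive gene GASA1 was lower at 7.61 and 6.25, with -1.35 in Col-0 and -0.52 in *crr*. In the list 1 of 25 genes was higher and 3 were lower (median 0.02), and the DELLA repressor genes RGA and GAI were at -0.15 and 0.24.

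In the jasmonate list 3 of 31 genes were higher and 0 lower, with a median of 0.20 and 25 positive differences. AOC1, an allene oxide cyclase, went from -4.38 to 2.47 log2 CPM, and the difference was 6.60 in *crr*. Its tandem neighbours AOC2 and AOC3 were at -0.00 and 0.75, and AOC1 shared 0% and 2.1% of its 50-base windows with them. JAZ10, a repressor induced by the hormone, was higher by 1.79 and by 1.73 in *crr*. JAZ5 was called at 1.10 in Col-0, within the same-medium limit, and was at -0.23 in *crr*. The marker genes VSP1 and VSP2 were at 0.07 and -0.30.

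On the abscisic acid and ethylene lists 3 genes were called. NCED3, the stress-induced step of abscisic acid synthesis, was lower at 2.02 and -0.31 log2 CPM, with -2.33 in Col-0 and -0.77 in *crr*, and was the 1 called gene of 24. The responsive gene RD29A was at -0.92, and the receptor and phosphatase genes PYR1 and ABI1 were at -0.23 and 0.13. For ethylene 1 of 25 genes was higher and 1 lower. ACS5, an isoform of the enzyme of the committed step, was lower at 1.56 and -0.14, and ARL, a growth gene related to ARGOS, was higher by 1.07. Other isoforms, not called, stood the other way beyond the same-medium limit. These were ACS11 at 0.90 and, under the level required, ACS9 at 4.05 and ACS8 at 1.70. ACS2, ACS6 and ACS7 lay within the limit. EIL2, an EIN3-like factor outside the list that was looked up after these values were seen, was higher by 3.16. The receptor gene ETR2, which reports ethylene signalling, was at 0.34 and the F-box gene EBF2 at 0.06.

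Auxin genes showed 2 lower members of 38. TAR2, an enzyme of auxin synthesis known from low nitrogen, was at 4.46 and 3.44, with -1.02 in both genotypes. LBD29, a factor of lateral root initiation, was at 1.59 and 0.29, a difference within the same-medium limit. The transporter genes AUX1 and PIN2 were at -0.23 and 0.45, and PIN2 lay beyond the limit. IAMT1, which methylates auxin and was looked up after these values were seen, was lower at -1.75. In the other lists BR6OX1, of brassinosteroid synthesis, was lower by 1.25 and was the 1 called gene of 10. None of 13 strigolactone and karrikin genes was called. Among signalling peptides CEP9 was higher at 1.59 and PSK4 lower at -1.30, of 18 measured.

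Cell wall genes divided by cell type and by wall. All 17 root hair markers had positive differences (median 0.97), 8 were called higher, and 15 passed the same-medium limit. PRP1 and PRP3, proline-rich proteins of the hair wall, stood at 4.81 and 7.59 log2 CPM in +Pi and 7.35 and 9.45 in -Pi. The regulators of hair growth RHD6 and RSL4 were at 0.83 and 0.92. Of the 3 markers of hairless cells none was called, with WER at 0.16 and GL2 at -0.40, just beyond the same-medium limit. Among 73 genes described as extensins, proline-rich or hydroxyproline-rich proteins 19 were higher and 0 lower. Not all of these are wall proteins. CHUP1, which positions chloroplasts, is among those not called. The extensins AT5G06630 and EXT2 were at 6.75 and 9.28 in +Pi and 8.91 and 10.86 in -Pi.

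Enzymes that cut and rejoin xyloglucan, the tether of cellulose, had both directions. Of 27 measured, 6 were higher and 2 lower (median 0.00). XTH26 was at 1.00 and 5.35, and the neighbours XTH12 and XTH13 (chromosome 5) at 3.72 and 2.29 in +Pi and 5.98 and 5.54 in -Pi, with 0% of XTH13 windows shared. XTH14 was higher by 1.83. XTH21 was lower by 2.58 log2 units, and XTH17 was lower at 6.29 and 4.47. Among 23 expansins, which loosen walls, 4 were higher and EXPB2 was lower at 1.76 and -0.98. EXPA12 had the largest positive difference of them, 2.03.

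Class III peroxidases, which oxidise wall phenolics and proteins, had 14 higher and 4 lower genes of 56 (median 0.29). PER52 went from -1.43 to 4.62 log2 CPM, with 6.05 log2 units in Col-0 and 6.24 in *crr*. PER8 and PER59 were higher by 3.37 and 3.33. PER4 and PER5 were lower by 1.97 and 1.83, and PER27 was at 8.60 and 6.65. Among arabinogalactan and fasciclin-like proteins of the cell surface the balance was reversed, with 3 higher and 7 lower of 41 (median -0.20). FLA6 was higher at 1.65 and 4.82, while FLA13 and AGP13 were lower at 5.38 and 4.11 in +Pi and 3.34 and 1.96 in -Pi. Of 47 pectin methylesterases and inhibitors 5 were higher and 4 lower, with PME2 at 6.86 and 4.86 and the inhibitor PMEI11 at 1.22 and 3.23.

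Genes of the lignified xylem wall stood lower together. Of 23 measured, 22 had negative differences and 16 passed the same-medium limit downward, at a median of -0.59 in Col-0 and -0.60 in *crr*. By the 2-fold rule 1 was called, the chitinase-like CTL2, at 5.21 and 4.05. The cellulose synthases of this wall, CESA4, CESA7 and CESA8, were at -0.51, -0.42 and -0.42, the laccases LAC4, LAC11 and LAC17 at -0.71, -0.83 and -0.94, and the vessel proteases XCP1 and XCP2 at -0.59 and -0.70. The switch genes VND6 and VND7 were at 0.54 and -0.33. The synthases of the primary wall were closer to 0. All 9 primary cellulose genes were negative, none passed the limit and the median was -0.17, with CESA1, CESA3 and CESA6 at -0.17, -0.21 and -0.01.

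Secondary metabolism held a broad positive shift of the aliphatic glucosinolates, the sulfur-rich defence compounds made from methionine. Of 27 measured genes 5 were higher, 0 were lower and 20 passed the same-medium limit upward, with a median of 0.62 in Col-0 and 0.44 in *crr*. Many steps of the pathway lay close to one another. BCAT4 and MAM1 start the lengthening of the methionine chain and were at 7.78 and 6.01 log2 CPM in +Pi and 8.83 and 7.33 in -Pi. IPMI1, IPMI2 and IMD1, which complete a cycle of it, were at 0.71, 0.65 and 0.59, CYP83A1 of the core pathway at 0.61, and the sulfotransferases SOT17 and SOT18 at 0.62 and 0.44. The regulator MYB28 was at 0.69. CYP79F1, which takes chain-lengthened methionine into the core pathway, went from -3.52 to 2.09, and its tandem copy CYP79F2 from 6.95 to 7.73. CYP79F1 shared 1.68% of its windows with CYP79F2. The side-chain oxygenases FMO GS-OX1 and FMO GS-OX3 were higher by 1.91 and 1.28. FMO GS-OX2 stood the other way at -0.84, beyond the same-medium limit, and FMO GS-OX4 and FMO GS-OX5 were at 0.07 and -0.255. The glucosinolate transporters GTR1 and GTR2 stood at -0.40 and -0.67.

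The indole branch, made from tryptophan, did not share this shift. Of 23 genes 0 were higher and 2 lower (median 0.13). IGMT1, which methylates indole glucosinolates, was lower at 4.37 and 2.01, and the hydroxylase CYP81F4 at 10.58 and 9.57. CYP79B2 and CYP79B3, the entry steps, were at 0.11 and -0.67.

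Most flavonoid genes stood lower and none met the rule for a call. Of 17 measured, 9 passed the same-medium limit downward, and the median was -0.70 in Col-0 and -0.24 in *crr*. The successive enzymes CHS, CHI, F3H and FLS1 were at -0.62, -0.88, -0.75 and -0.86, from +Pi means of 10.55, 7.54, 8.32 and 8.74 log2 CPM. The flavonol regulators MYB12 and MYB111 were at 0.00 and 2.23, the latter from -2.72 to -0.49 log2 CPM, under the level required. DFR, the entry to anthocyanins, was at 0.21 and -1.05 log2 CPM, also under that level. In the general phenylpropanoid path 4CL3, tied to flavonoids, was lower by 1.16 and the lignin-related 4CL1 and 4CL2 stood at 0.41 and 0.44. PAL2 and PAL4 were at -0.79 and -0.84. Of 8 coumarin genes 2 were lower, the fraxetin oxidase gene CYP82C4 at 6.71 and 3.72 and AT3G12900, a 2-oxoglutarate-dependent oxygenase, at 2.09 and -4.21. F6'H1, the first dedicated step to scopoletin, was at -0.28.

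Triterpene clusters of the root also stood lower. THAS, THAH and THAD, neighbouring genes of thalianol synthesis on chromosome 5, were at -0.61, -0.74 and -0.58, and MRN1, MRO and CYP705A12 of the marneral cluster at -0.76, -0.79 and -1.03. In *crr* the same 6 genes were at -0.39, -0.47, -0.21, -0.15, -0.39 and -0.37. BARS1, of another triterpene cluster, went the other way from -2.81 to 0.94 log2 CPM, under the level required.

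**Figure D5:**
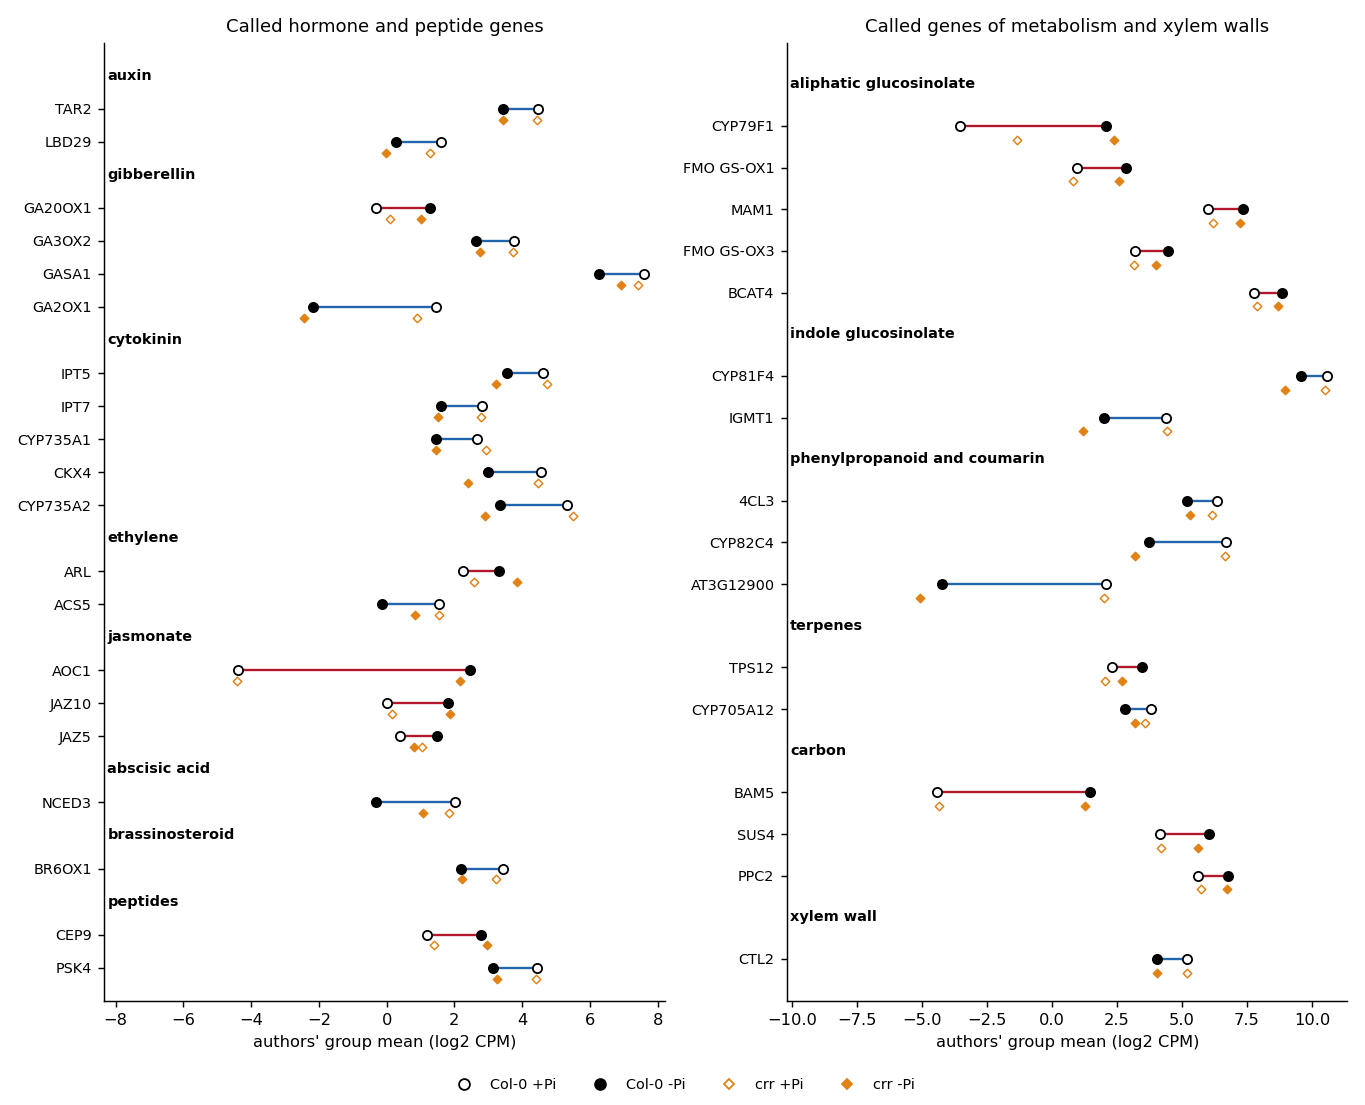
Circles give the authors' Col-0 means (log2 CPM) in +Pi (open) and -Pi (filled) for called genes of hormones and peptides (left) and of secondary metabolism, carbon and xylem walls (right), joined in red where -Pi is higher and in blue where it is lower, and orange diamonds give the *crr* means. The 5 cytokinin genes all lie lower under -Pi and the 5 aliphatic glucosinolate genes all lie higher, and JAZ5 is a gene whose *crr* means lie in the other order.

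Enzymes that modify foreign and specialised compounds had called genes in both directions. Of 154 cytochromes P450, 5 were higher and 14 lower (median -0.08), where 2.92% of all genes were higher and 1.92% lower. CYP706A2 was at -1.04 and 2.55 log2 CPM, CYP94D1 at -0.19 and 2.84, and CYP97C1, of carotenoid synthesis, at 1.95 and 0.19. Of 46 glutathione S-transferases 3 were higher and 1 lower, with GSTU12 at -1.19 and 3.15, GSTF6 at 4.84 and 6.68 and GSTF14 at 5.77 and 4.51. The shares of P450 genes called higher and of transferases called lower lay near those of all genes. No suberin gene of 15 was called (median 0.15), and ABCG20, a transporter of suberin, passed the same-medium limit at 0.52.

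Carbon genes leaned upward. Of 19 measured, 3 were higher, 0 lower and 11 passed the same-medium limit upward (median 0.50). The PEP carboxylases, which make the precursor of malate, were at 0.97 for PPC1, 1.16 for PPC2 and 0.66 for PPC3. SUS4, a sucrose synthase, was at 4.17 and 6.05, and the beta-amylase BAM5 at -4.41 and 1.48. SUC1, a sucrose carrier, and STP1, a hexose carrier, stood at -0.84 and -0.57. ALMT1, the malate channel of the root tip, was at 0.37. Genes of the low oxygen response were positive in 11 of 12 cases (median 0.45). ADH1 was called, and HRA1 and PCO2 stood at 0.94 and 0.91, with 0.01 and 0.80 in *crr*. Among 9 genes of salicylate, immunity and camalexin none was called (median 0.22), with PAD4 at 0.54 and PAD3 at 0.51.

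Among transcription factor families the WRKY factors, known from defence and stress, had 7 higher and 0 lower genes of 60. WRKY40 was at 0.69 and 2.17 and WRKY48 at 3.66 and 4.92, while WRKY75, a factor tied to Pi, was at -0.59. Of 84 MYB factors 3 were higher and 5 lower, with the defence regulator MYB15 at 0.74 and 2.47. MYB42 was called higher at 1.24, within the same-medium limit. NAC factors had 2 higher and 3 lower of 73, with NAC048 at 2.83 and 4.08 and NAC035 lower by 1.85. The shares of MYB and NAC factors called higher lay near the 2.92% of all genes, and 1.92% of all genes were lower. Of 13 clock genes 0 were higher and 1 lower, RVE1 at -1.16. LHY and CCA1 were at -0.41 and -0.55, both beyond the same-medium limit, while TOC1 and GI were at -0.02 and -0.04.

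Markers of other cells and tissues were set beside these results. Endodermis markers had 0 higher and 1 lower of 11, CASP5 at -1.99, while CASP1 and SCR were at -0.13 and -0.06. The 4 root cap markers had differences of 0.30 to 0.45, and the 14 meristem and division markers had none called and a median of 0.08. Of the latter, the meristem genes PLT1 and PLT2 stood at 0.61 and 0.72, beyond the same-medium limit, and the others lay within it. Genes of cytosolic ribosomal proteins, 180 in number, had none called and a median of 0.02. Of 35 photosystem and antenna genes, which mark green tissue, 0 were higher and 5 lower, with a median of -0.57 in Col-0 and -1.01 in *crr*. The summed level of the 7 measured green tissue markers was 102.1 CPM in +Pi and 57.8 CPM in -Pi. Their part in the lower groups was not tested. No gene of a 10-gene list of flower, seed and pollen markers was among the measured genes. SESA4, a seed storage protein outside that list that was looked up after these values were seen, was higher at -2.43 and 1.02 log2 CPM, with 3.48 log2 units in *crr*.

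Some called genes lay next to each other. Of the higher genes with a position, 66 (11.4%) were next to another higher gene in the order of measured genes, and of the lower genes 44 (11.6%) were next to another lower one. Of all genes 2.92% were higher and 1.92% lower, and a gene has a neighbour on each side. None of these pairs overlapped. Among them were the F-box genes PP2-B13 and PP2-B14 at 4.46 and 4.46, LSU4 and LSU2, XTH12 and XTH13, and the ferric reductases FRO4 and FRO5 at 1.87 and 2.53, for which the *crr* differences were 0.26 and -0.28. On the lower side were the major latex protein-like genes MLP328 and MLP329 at -2.07 and -2.18. The closely related pair AT4G12510 and AT4G12520 was at -1.89 and -1.45, but 51.8% of the windows of AT4G12510 also occur in AT4G12520.

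Some called genes had the other sign in *crr*, 5 of the higher and 12 of the lower. FRO5 was at 1.81 and 4.34 log2 CPM in Col-0 and at 1.71 and 1.44 in *crr*. ELIP1, a light stress protein of the chloroplast, was at 5.54 and 4.52 in Col-0 and at 5.19 and 5.62 in *crr*. MYB61 was at 3.68 and 2.63 in Col-0 and at 3.26 and 3.27 in *crr*. The pair called in opposite directions was AT1G52820, at 2.27 and 0.73 in Col-0 and 1.12 and 2.84 in *crr*, and AT5G09735, at 1.38 and 0.26 in Col-0 and 1.12 and 2.17 in *crr*. Whether the genotypes differ was not tested for any of them.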

How the data were processed

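Roots of Col-0 and *crr* seedlings were sequenced in 12 libraries, 3 in each group. Per the labels and the study's methods, reads were trimmed with cutadapt 1.8, aligned to TAIR10 with STAR 2.5.3a and counted per gene with HTSeq 0.9.1; RSEM 1.2.31, R 3.5.3, edgeR 3.24.3 and limma also stand in the submitters' notes. The values used are the log2 CPM group means that the authors deposited after scaling between libraries. The deposited tables of the authors' own comparisons hold fold changes, F statistics and p-values and were not used, and 0 other columns of per-library values were found. Since only means were used, no test was run.

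Differences were computed with Python 3.11.15, pandas 2.3.3 and numpy 2.4.6. The code for a call was run on simulated group means with fixed changes above the limit and no noise. That checks its arithmetic only and says nothing about error rates. The genes named are up to 5 called list members with the largest differences in each direction, members whose role defines a pathway whether called or not, and some of the 12 largest differences over all genes in each direction. Genes named outside this rule are said to be. The members and lists were chosen with earlier results of these data known. The same-medium limit was first planned on the +Pi pair and was widened to the wider of both pairs after the values were seen. The rule for xyloglucan enzymes was also widened then, families set by name were matched to RefSeq symbols as well as the names in the table, and the lists of lipid transfer proteins, BTB and TAZ proteins, major latex proteins and PHT1 were added then. For 127 genes no position was used, and the position fields of 1833 genes were displaced in the table and were realigned. Promoter windows came from RefSeq TAIR10.1, where P1BS was searched as GNATATNC and the G-box as CACGTG on both strands.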

Additional observations from a re-analysis of the deposited data

How the results depend on the processing

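No paired analysis was possible because only the mean of each group was used, and for the same reason no library could be left out. With a required level of 3 log2 CPM, 359 genes were higher and 221 lower. With a 1.5-fold limit in place of 2-fold, 1260 were higher and 1100 lower. On the log2(CPM + 1) scale 457 were higher and 252 lower, and of 231 called list genes 19 differed there by more than the same-medium limit, among them AOC1 at 2.64, CYP79F1 at 2.28 and BAM5 at 1.86. With no filter on level 838 were higher and 558 lower. Centring on the median of all genes gave 570 and 402, and centring on ribosomal protein genes gave 568 and 406. With the +Pi pair alone as the same-medium limit, as first planned, 3275 genes lay higher and 2963 lower. The cause of these changes was not tested. The read numbers that the paper reports were not used to set a limit.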

Other observations

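The genes below were chosen after their values were seen. In the lipid transfer protein family, small secreted proteins that carry lipids, 4 of 29 were higher and 6 lower (median -0.19). DIR1, known from systemic immunity, was higher by 2.13. The lower members included neighbours on chromosome 5, AT5G46890 at 6.74 and 4.24 log2 CPM in +Pi and -Pi and AT5G46900 at 6.51 and 3.80, and 26.8% of the 50-base windows of AT5G46890 also occur in AT5G46900. AIR1, a relative first known from auxin-treated roots, was at 7.08 and 4.67.

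Transporters of other solutes had wide differences. OCT1, an organic cation transporter, was at -1.55 and 7.32 log2 CPM, while OCT3 was at 3.38 and 1.82. In the UMAMIT family, which exports amino acids, UMAMIT17 and UMAMIT20 were lower by 2.72 and 2.70 log2 units in Col-0, and the *crr* differences were -4.82 and -4.47. Other members were higher, UMAMIT35 by 2.53, UMAMIT38 by 2.52, UMAMIT26 by 1.74 and UMAMIT14 by 1.70. TCH3, a calmodulin-like protein, was at 3.40 and 7.08, with 3.56 log2 units in *crr*. AT3G52720, an alpha carbonic anhydrase, was at -0.66 and 2.65, with 0.93 log2 units in *crr*. Whether the genotypes differ was not tested.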
